A study of Mus musculus with 2 samples.

Results

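The cells described are Lef1-positive T cells, 464 of the 11350 barcodes that had at least 200 genes and under 15% of UMIs (unique molecular identifiers, 1 per captured RNA molecule) from mitochondrial genes. They were proposed as Lef1-expressing naive-like T cells. A barcode was a member when it held at least 2 UMIs summed over Cd3d, Cd3e and Cd3g, which encode the signalling chains of the T cell receptor, at least 2 UMIs of Lef1, and 0 UMIs of Foxp3, Trdc, Cd79a and C1qa. Those last 4 genes mark regulatory T cells, gamma-delta T cells, B cells and macrophages. The measured UMIs of these 8 genes chose the members, so they are given as a description and support no result. The PBS library held 121 members of 4833 barcodes and the AKK library 343 of 6517.

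Live CD45-positive leukocytes were dissociated from liver tumours, sorted with a gate against doublets, and profiled with the 10x Genomics 3′ v3 droplet kit. The mice were C57BL/6. Both groups ate a methionine- and choline-deficient diet, a fatty liver model, and carried orthotopic tumours of RIL-175, a mouse hepatocellular carcinoma line labelled with luciferase. The AKK mice were given Akkermansia muciniphila, a mucin-degrading gut bacterium, by mouth at 5e9 colony-forming units, and the PBS mice were given phosphate-buffered saline. Feeding began 2 weeks before the diet, the diet preceded implantation by 2 weeks, and feeding paused for 6 days after surgery and then resumed. Each group had 1 library, and the sources used here do not say whether it pooled mice. With no replicates nothing was tested, so a direction is that of a pair of libraries, and the 95% intervals measure counting error alone.

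LEF1 and its relative TCF1, which the gene Tcf7 encodes, are DNA-binding proteins of the high-mobility-group family that act with beta-catenin or with TLE corepressors. In T cells both are abundant from the thymus to the naive stage, fall when a cell becomes an effector, and are kept in part by memory and stem-like cells. Naive T cells recirculate through lymph nodes by way of CCR7, leave along a lipid gradient read by S1PR1, and live on interleukin-7.

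The labelled identity was met in part. After every cell was thinned to 5651 UMIs, the 10th percentile of the members, 112 PBS and 305 AKK members were compared with T cells that met the same rule but held 0 Lef1 UMIs (Lef1-zero T cells, 115 and 218 after thinning). Cells below that depth, 9 and 38 members, were left out of the thinned shares. Tcf7 was detected in 61.6% of PBS members (51.9 to 70.6) and 73.8% of AKK members (68.5 to 78.6), against 24.3% and 34.9% of Lef1-zero T cells. In macrophage barcodes, a type that should lack it, the shares were 1.63% and 1.87%. Unthinned, 70.2% of PBS and 77.6% of AKK members held Tcf7. Satb1, which encodes a chromatin organiser of the T lineage, was detected in 81.2% and 86.9% of members and in 71.3% and 67.0% of Lef1-zero T cells. Both markers were thus more frequent in members in each library, Tcf7 by the wider margin. For Satb1 in PBS the thinned intervals overlapped, 72.8 to 88.0 against 62.1 to 79.4. Unthinned, Satb1 was in 84.3% of PBS and 91.0% of AKK members and in 80.6% and 69.0% of Lef1-zero T cells. Thinned neutrophil barcodes held it in 22.6% and 29.9%.

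The homing receptors of naive cells were detected in part of the members. Ccr7 was detected in 30.4% of PBS and 27.5% of AKK members, against 18.3% and 9.17% of Lef1-zero T cells, and S1pr1 in 49.1% and 55.7%, against 13.9% and 20.6%. Without thinning, Ccr7 was found in 32.2% and 32.9% of members, and S1pr1 in 57.9% and 66.5%. Dapl1, a gene typical of naive and central memory cells, reached 12.5% and 13.8% of members, 0% and 1.38% of Lef1-zero T cells and 0% of macrophage barcodes in both libraries. Genes of antigen-experienced and cytotoxic cells were also present. Nkg7, which encodes a granule protein of killer lymphocytes, was detected in 64.3% and 72.8% of members, in 79.1% and 69.7% of Lef1-zero T cells and in 4.58% and 7.94% of macrophage barcodes. Natural killer cells share it: all 10 of their markers were detected in members of both libraries, summing to 513 CPM in PBS and 725 CPM in AKK (CPM, summed UMIs scaled to equal depth). In Lef1-zero T cells they summed to 647 and 821 CPM. Ncr1 was in 2.48% and 3.21% of members without thinning. Il2rb, the beta chain shared by the interleukin-2 and interleukin-15 receptors, was detected in 81.2% and 79.0% of members. The shares were 86.1% and 79.4% in Lef1-zero T cells and 10.5% and 10.7% in macrophage barcodes. The members are therefore called Lef1-positive T cells and not naive cells in what follows.

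**Figure D1:**
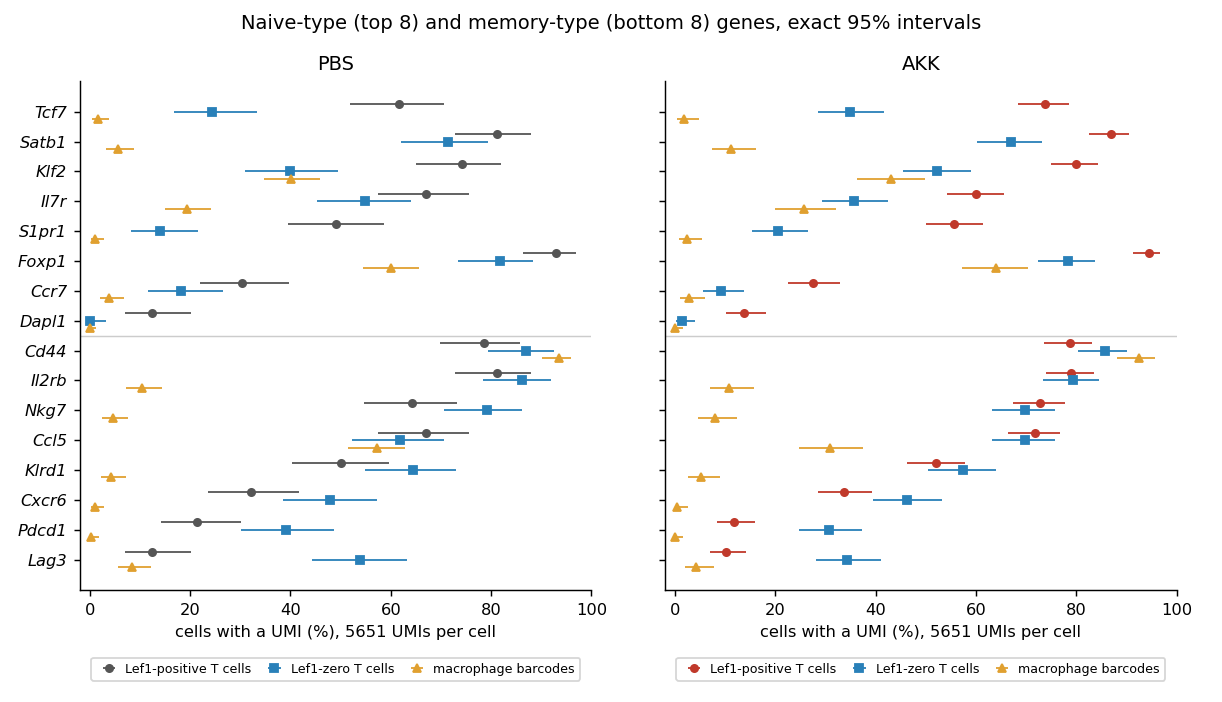
Percent of cells with at least 1 UMI of each gene (x axis) after thinning to 5651 UMIs, for Lef1-positive T cells (circles), Lef1-zero T cells (squares) and macrophage barcodes (triangles), with exact binomial 95% intervals as bars. Tcf7, S1pr1 and Dapl1 sit to the right in Lef1-positive cells of both libraries. Nkg7 and Il2rb lie above 60% in Lef1-positive and in Lef1-zero T cells. Lag3 (12.5% and 10.2%) lies far to the left of its Lef1-zero value (53.9% and 34.4%).

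Lef1 lies on chromosome 3 of the mouse genome (131110471 to 131224356, plus strand, GRCm38), Tcf7 on chromosome 11 (52252371 to 52283014, minus strand) and Satb1 on chromosome 17 (51736187 to 51833290, minus strand). Proteins of the LEF and TCF family recognise the core CTTTGA, which reads TCAAAG on the other strand. The core was searched on both strands of RefSeq GRCm38.p6 promoter windows, each from 250 bases before to 50 after a start site. Of 32851 windows, 5257 held it. Among the 10 genes that stood highest in members over Lef1-zero T cells (below), 7 had 16 windows, of which 1 held the core (6.25%). For the 17 genes of a naive T cell list, 14 had 21 windows, of which 3 held it (14.3%). A match is a description of letters and not of binding. The windows of Lef1 itself and of a pair of genes higher in members, Bach2 and Cmah, are shown because they held the core. The matches are in capitals, 5′ to 3′ on the plus strand. The Lef1 window, chr3:131156044-131156343, surrounds a start site inside the gene and holds the core at -180 and -120 from it. The other 3 Lef1 windows held none. The Bach2 window is chr4:32417185-32417484, with the core at -93, and the Cmah window is chr13:24327154-24327453, with the core at -215.
Lef1: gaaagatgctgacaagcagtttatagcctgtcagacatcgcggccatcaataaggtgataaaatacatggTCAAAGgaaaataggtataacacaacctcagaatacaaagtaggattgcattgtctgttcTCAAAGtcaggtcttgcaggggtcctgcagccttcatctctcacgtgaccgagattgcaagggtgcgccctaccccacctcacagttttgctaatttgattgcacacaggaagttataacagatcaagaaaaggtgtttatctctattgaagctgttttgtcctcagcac
Bach2: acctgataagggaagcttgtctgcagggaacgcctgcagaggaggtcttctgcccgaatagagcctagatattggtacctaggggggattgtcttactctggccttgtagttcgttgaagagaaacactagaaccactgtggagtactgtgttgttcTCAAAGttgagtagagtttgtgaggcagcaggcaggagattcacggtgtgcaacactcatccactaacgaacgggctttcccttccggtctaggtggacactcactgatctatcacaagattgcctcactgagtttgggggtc
Cmah: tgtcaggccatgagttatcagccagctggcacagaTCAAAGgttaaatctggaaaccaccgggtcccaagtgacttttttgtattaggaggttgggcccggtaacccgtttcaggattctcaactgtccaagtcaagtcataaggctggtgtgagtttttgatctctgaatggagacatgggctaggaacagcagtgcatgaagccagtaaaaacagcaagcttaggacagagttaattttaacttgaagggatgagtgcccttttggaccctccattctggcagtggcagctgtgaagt

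Members made up 2.50% of barcodes in PBS (2.08 to 2.98) and 5.26% in AKK (4.73 to 5.83), a difference of 2.76 percentage points (2.05 to 3.46, Newcombe interval). T cells by the same rule without Lef1 were also a larger part of the AKK library, 719 of 6517 barcodes against 307 of 4833. Within T cells the members were 39.4% in PBS and 47.7% in AKK, a difference of 8.29 points (1.65 to 14.7). When each T cell was thinned before the rule was applied, the shares were 34.8% (102 of 293) and 40.0% (249 of 623), and the interval of the difference of 5.16 points, -1.61 to 11.7, included 0. The share among all barcodes was thus higher in the AKK library with and without thinning, and the excess within T cells was not resolved at equal depth. A larger share can stem from more of these cells or from fewer other leukocytes, which cannot be told apart.

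Depth was alike in both sets of members. The summed UMIs were 1308865 in PBS and 3858480 in AKK, with medians of 10083 and 9785 per cell, and ranged from 3572 to 34323 and from 2136 to 121657. A member held a median of 7 Lef1 UMIs in PBS and 6 in AKK, and at most 57 and 63. Just inside the threshold, 20 PBS and 50 AKK members had exactly 2 Lef1 UMIs. Just outside, 42 and 102 T cells had 1 and 144 and 274 had none. Exactly 2 CD3 UMIs were found in 6 and 17 members, and 21 and 55 barcodes with at least 2 Lef1 UMIs missed the rule with 1 CD3 UMI. The libraries shared 8 barcode sequences, and none was a member in both. Every Lef1 count from 0 to 18 UMIs occurred in both libraries, so the members are the cells above a threshold in a continuous range.

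**Figure D2:**
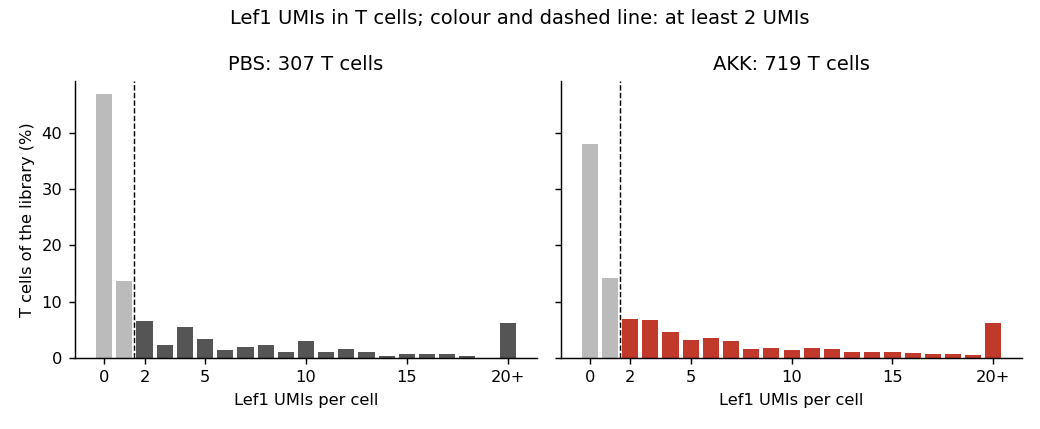
Percent of the T cells of each library (y axis) by number of Lef1 UMIs per cell (x axis, values of 20 and more in the last bar), with members coloured to the right of the dashed line at 2 UMIs. In both libraries the 0 bar is the tallest (144 of 307 PBS and 274 of 719 AKK T cells) and no gap separates members from the rest.

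By coreceptor, most members that could be typed were CD8 cells. A cell was CD8-type with a Cd8a or Cd8b1 UMI and no Cd4 UMI, and CD4-type with the reverse. In PBS 53 of 121 members were CD8-type (43.8%), 29 CD4-type (24.0%), 2 both and 37 neither (30.6%). In AKK 183 of 343 were CD8-type (53.4%), 61 CD4-type (17.8%), 7 both and 92 neither (26.8%). The difference in the CD8-type share, 9.55 points, had an interval of -0.798 to 19.5. Seen from the other side, members were 31.5% of CD8-type T cells in PBS and 46.4% in AKK, a difference of 14.9 points (6.06 to 23.1). Among CD4-type T cells they were 43.3% and 49.2%, with an interval of the difference of -8.80 to 20.1. Cd40lg, the helper cell ligand of CD40, followed this typing with 48.6 and 103 CPM in CD4-type members against 0 and 1.39 CPM in CD8-type members of PBS and AKK.

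Cytotoxic genes differed by type. Nkg7 stood at 548 CPM in PBS and 569 CPM in AKK CD8-type members, at 100.3 and 168 CPM in CD4-type and at 239 and 335 CPM in neither-type members. Gzmb, which encodes granzyme B, was not highest in CD8-type members of both libraries, at 163 and 124 CPM in CD8-type, 30.4 and 91.3 CPM in CD4-type and 155 and 239 CPM in neither-type members. Ccl5, a chemokine of memory and effector T cells, stood at 3627 and 2196 CPM in CD8-type, at 389 and 569 CPM in CD4-type and at 1467 and 1542 CPM in neither-type members. Tcf7 was similar in CD8-type members, at 385 and 466 CPM, and in CD4-type members, at 413 and 488 CPM. After thinning, 0 of 49 PBS and 4 of 169 AKK CD8-type members lacked all of Ccr7, Nkg7 and Ccl5, and of CD4-type members 6 of 28 and 11 of 47. Ccl5 was also found in 57.2% and 30.8% of macrophage and 14.5% and 22.6% of neutrophil barcodes after thinning.

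Members differed among themselves in homing and effector genes. A Ccr7 UMI was present in 39 of 121 PBS members (32.2%, 24.0 to 41.3) and 113 of 343 AKK members (32.9%, 28.0 to 38.2). These cells had more Tcf7 RNA than the members without it, 668 against 235 CPM in PBS and 652 against 289 CPM in AKK. Bach2, which encodes a repressor of effector genes, followed the same order at 2572 against 798 CPM and 1954 against 949 CPM, as did Satb1 at 2039 against 751 CPM and 2321 against 1225 CPM. Nkg7 ran the other way, 141 against 462 CPM in PBS and 251 against 565 CPM in AKK. So did Ccl5, at 662 against 3045 CPM and 682 against 2449 CPM, and Pdcd1, which encodes the inhibitory receptor PD-1, at 10.2 against 74.6 CPM and 23.7 against 38.9 CPM. The split was not exclusive. At equal depth 14 of 34 PBS members with Ccr7 also held Nkg7 (41.2%, 24.6 to 59.3), against 58 of 78 without (74.4%, 63.2 to 83.6). In AKK the counts were 41 of 84 (48.8%, 37.7 to 59.96) and 181 of 221 (81.9%, 76.2 to 86.7). Among Lef1-zero T cells the shares were 76.2% with and 79.8% without Ccr7 in PBS, and 70.0% and 69.7% in AKK. The split by Ccr7 was chosen after the values had been seen, and its sides differ in depth, with medians of 11420.0 against 9048.5 UMIs in PBS and 11928 against 8886.5 UMIs in AKK.

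Levels by the amount of Lef1 are a description, since Lef1 UMIs chose the members. T cells were grouped by 0, 1, 2 to 3, 4 to 9 and at least 10 Lef1 UMIs, with 144, 42, 27, 47 and 47 PBS cells and 274, 102, 98, 125 and 120 AKK cells. Satb1 stood at 493, 656, 714, 948 and 1745 CPM across these classes in PBS and at 473, 585, 975, 1403 and 2316 CPM in AKK. S1pr1 stood at 38.2, 86.0, 92.5, 125 and 271 CPM in PBS and at 46.2, 88.9, 157, 189 and 264 CPM in AKK. Both genes were higher in every next class in both libraries. Lag3, which encodes an inhibitory receptor of stimulated T cells, ran from 240 CPM at 0 Lef1 UMIs to 29.1 CPM at 10 or more in PBS, and from 122 to 5.90 CPM in AKK. Tcf7 was not as regular, at 75.2, 304, 292, 282 and 552 CPM in PBS and 107, 163, 401, 345 and 531 CPM in AKK. Nkg7 stayed at 262 CPM in PBS and 364 CPM in AKK in the top class, where 33 of 47 and 90 of 120 cells held it (70.2% and 75.0%). The median depth was 9392 UMIs at 0 and 11201 at 10 or more Lef1 UMIs in PBS, and 8642 and 11007.5 in AKK, and its part in these orders was not tested.

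**Figure D3:**
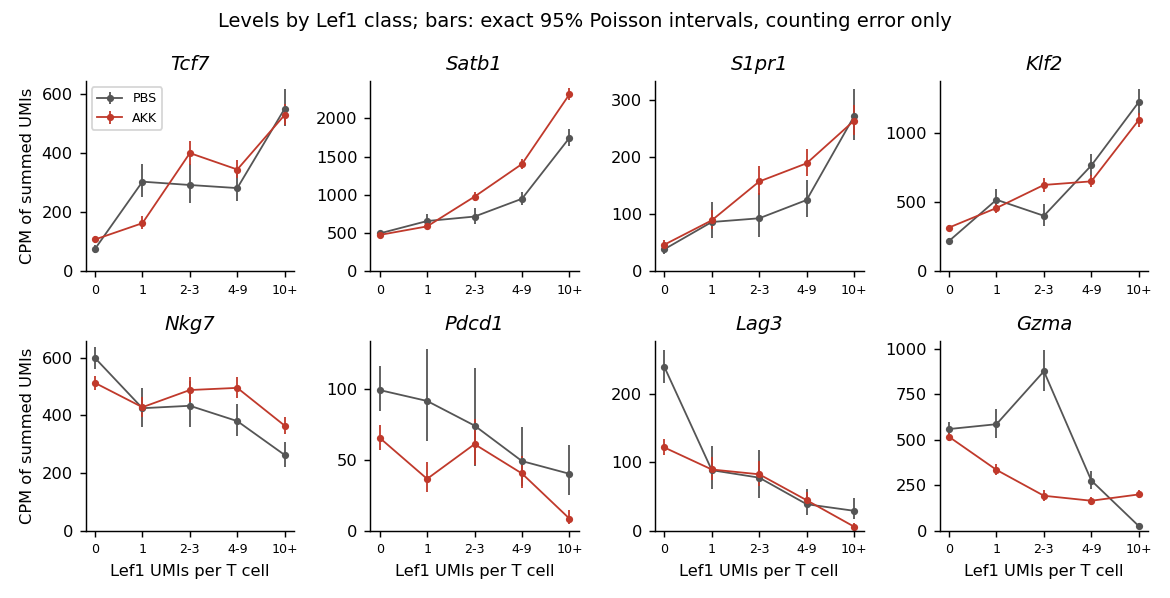
Level of each gene (y axis, CPM of UMIs summed over cells) in T cells grouped by Lef1 UMIs per cell (x axis), PBS and AKK as separate lines, with exact Poisson 95% intervals for counting error as bars. Satb1 and S1pr1 are higher in each next class in both libraries, Lag3 is highest at 0 Lef1 UMIs, and Nkg7 remains at 262 and 364 CPM in the top class.

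Members were then compared with Lef1-zero T cells inside each library, as the log2 ratio of CPM + 10 for 8301 genes with at least 30 UMIs in each library's comparison. The rule genes were left out. Past 2-fold the same way in both libraries were 64 genes higher (0.771%) and 145 lower (1.75%). The counts depend on the settings: a pseudocount of 50 CPM gave 24 and 23, one of 2 CPM gave 266 lower. Since Lef1 itself separates these cells, the counts are a description. Lef1-zero T cells can hold Lef1 RNA that was not captured. They also carried more RNA of other cells: the neutrophil genes S100a8 and S100a9 allowed 21.6% of their UMIs in PBS and 11.97% in AKK to come from neutrophils, against 6.29% and 4.75% in members. All 12 neutrophil markers were detected in members, summing to 5117 CPM in PBS and 3664 CPM in AKK against 13160 and 7486 CPM in Lef1-zero T cells. Within coreceptor types the order was not uniform. The median log2 ratio of these markers, members over Lef1-zero T cells, was 2.47 in PBS and -0.68 in AKK for CD4-type cells. For CD8-type cells it was -0.08 in PBS and 0.31 in AKK. Tumour and epithelial markers, of which 5 of 8 were detected in PBS and 7 of 8 in AKK members, summed to 599 and 679.8 CPM in Lef1-zero T cells and 203 and 144 CPM in members, with Epcam, Alb and Col1a1 at 0 in PBS members and Col1a1 at 0 in AKK members. The part of this RNA in the genes that were lower in members was not tested.

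Tcf7 stood at 397 CPM in members and 75.2 CPM in Lef1-zero T cells of PBS, and at 432 and 107 CPM in AKK. The ratios were 5.28 (4.32 to 6.50) and 4.03 (3.60 to 4.53). Together with S1pr1, which stood at 179.5 against 38.2 CPM and 210.4 against 46.2 CPM, Tcf7 was among the 10 genes with the largest difference in both libraries. The first of the 10 was Patj, which encodes a scaffold of cell polarity, at 159 against 18.8 CPM in PBS and 135 against 20.9 CPM in AKK. Cmah, the enzyme that makes N-glycolylneuraminic acid, stood at 225 against 33.2 CPM and 239 against 50.4 CPM. Sidt1, a membrane protein of the SID1 family, stood at 622 against 146 CPM and 845 against 211 CPM. Pde2a, a phosphodiesterase that breaks down cyclic AMP and cyclic GMP, stood at 231 against 36.4 CPM and 266 against 71.6 CPM. For these genes each library gave 3.72 to 8.45 times as much RNA in members. Auts2, a regulator of transcription, had 3 UMIs in PBS Lef1-zero T cells and ratios of 33.3 (11.01 to 165) and 10.2 (6.56 to 16.5). Nsg2 (log2 2.16 and 1.92), Tdrp (2.20 and 1.79) and Dapl1 (1.79 and 2.25) completed the 10. Within CD8-type cells their log2 ratios ran from 1.46 to 3.40. Within CD4-type cells they were smaller for most, with Tcf7 at 0.59 in PBS and 1.15 in AKK, S1pr1 at 0.22 and 0.86, Patj at 0.56 and 2.01 and Cmah at 1.31 and 0.46.

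Of the 17 naive T cell genes (Lef1 not counted), 14 were higher in members in PBS, 8 of them past 2-fold, and 15 in AKK, 10 of them past 2-fold. The list's median log2 ratio was 0.73 and 1.11, beside -0.07 and -0.09 over all genes measured. Of all genes measured, 3550 of 8341 were higher in PBS, 150 of them past 2-fold, and 4286 of 10723 in AKK, 93 past 2-fold. Klf2, a transcription factor that drives S1pr1, stood at 881 against 217 CPM in PBS and 818 against 315 CPM in AKK. Foxp1, a guardian of T cell quiescence, stood at 1083 against 448 CPM and 1320.5 against 653 CPM, and Bach2 at 1464 against 703 CPM and 1345 against 531 CPM. In PBS Ccr7 was not higher in members, at 149.7 against 197 CPM, although 39 of 121 members and 23 of 144 Lef1-zero T cells held it. In AKK it was 163 against 31.2 CPM, and this difference between the libraries was not tested. Igfbp4, a further naive cell gene, was lower in AKK members than in Lef1-zero T cells (log2 -1.26), where 1 Lef1-zero cell held 41.0% of that group's UMIs, and was at 0.73 in PBS, where 1 held 89.1%. Without the cell with the most UMIs in each group it was -0.69 in AKK and 2.53 in PBS. The PBS list median is this gene's own value, between Il7r at 0.69 and Bach2 at 1.05. CD8-type AKK members gave 1.22 for Igfbp4 against CD8-type Lef1-zero T cells. Id3 (-0.03 and -0.27) and Cd27 (-0.44 and 0.05) did not stand out in either library.

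The checkpoint list, inhibitory receptors and factors of exhausted T cells, had a median of -0.58 in both libraries, with 12 of 13 genes lower in members in each. Of all genes measured, 4791 of 8341 in PBS and 6437 of 10723 in AKK were lower. Lag3 stood at 42.8 against 240.1 CPM in PBS and 38.9 against 122 CPM in AKK. Havcr2, which encodes TIM-3, stood at 34.4 against 103 CPM and 34.5 against 83.4 CPM, and Pdcd1 at 50.4 against 99.03 CPM and 32.9 against 65.4 CPM. Tox, a factor of exhausted and of progenitor cells, was 756 against 1293 CPM and 644 against 966 CPM. Restricted to CD8-type cells on both sides, the list's median was -1.02 and -0.85 and the naive list's was 0.97 and 1.16. In CD4-type cells the checkpoint median was -0.21 in PBS (6 of 9 lower) and -0.93 in AKK (10 of 10), and the naive median 0.57 (12 of 14 higher) and 1.05 (14 of 15). Tnfrsf9, which encodes the activation receptor 4-1BB, was 159 against 469 CPM and 91.7 against 277 CPM.

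Cytotoxic genes were lower in members with a median of -0.76 in PBS (15 of 17 genes lower) and -0.38 in AKK (14 of 19 lower). With CD8-type cells on both sides the median was -0.46 in PBS (15 of 17 lower) and -0.97 in AKK (17 of 18 lower). With CD4-type cells on both sides it was -0.49 in PBS (5 of 9 lower) and -0.15 in AKK (8 of 11 lower). Prf1, which encodes perforin, stood at 46.6 against 113 CPM and 55.5 against 88.7 CPM, and Gzma at 295 against 559 CPM and 185 against 516 CPM. Nkg7 was closer, at 342 against 599 CPM in PBS and 441 against 512 CPM in AKK. Ccl5 was not lower at all, at 2151 against 1579 CPM and 1754 against 1454 CPM. The memory and activation list had medians of -0.28 (17 of 24 lower) and -0.34 (15 of 24 lower). Of all genes measured, 4791 of 8341 in PBS and 6437 of 10723 in AKK were lower. The AKK count of this list was near that share. Within it S100a6, a calcium-binding protein of motile memory cells, was 691 against 1838 CPM and 692 against 1858 CPM. Il2rb was at 484 against 537 CPM and 478 against 452 CPM. Members thus had less checkpoint and S100a6 RNA than Lef1-zero T cells, while Il2rb and Ccl5 stood near or above their Lef1-zero levels. Lef1-zero T cells also carried more RNA of neutrophil and tumour markers, and its part in S100a6 was not tested. Ccl5 was found in 57.2% and 30.8% of thinned macrophage barcodes, and the part of free RNA in its level was not tested either.

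Partners and feedback genes of LEF1 differed little as a list, with medians of 0.10 and 0.22. Bcl9l, which links beta-catenin to its coactivators, stood at 58.1 against 27.6 CPM and 62.7 against 31.8 CPM. Tle4, a corepressor, stood at 337 against 205 CPM and 355 against 247 CPM. Ctnnb1, beta-catenin itself, was 96.3 against 113 CPM and 85.8 against 135 CPM. The feedback gene Axin2 had a log2 ratio of -0.15 in PBS and 0.96 in AKK. It was found in 7 of 121 PBS and 48 of 343 AKK members, against 11 of 144 and 11 of 274 Lef1-zero T cells. Whether the libraries differ in Axin2 was not tested. Il6st, which encodes the gp130 chain of interleukin-6 family receptors, was higher in members at 86.3 against 26.95 CPM in PBS and 92.3 against 35.9 CPM in AKK.

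**Figure D4:**
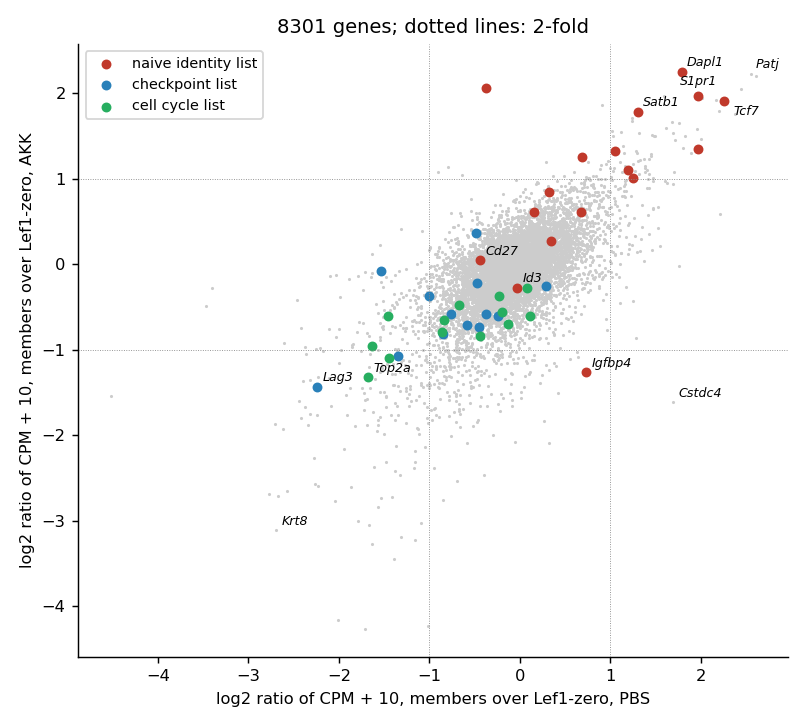
Log2 ratio of CPM + 10 in Lef1-positive over Lef1-zero T cells for 8301 genes, PBS on the x axis and AKK on the y axis, with genes of the naive, checkpoint and cell cycle lists coloured and dotted lines at 2-fold. Tcf7, S1pr1 and Satb1 lie past 2-fold in both libraries, Lag3 and Top2a lie past 2-fold lower in both, and Cstdc4 lies past 2-fold in opposite directions.

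Among the 10 genes lowest in members were Krt8, Krt19, Rbp4, Ptprk, Krt18, Wfdc2, Cldn18, Hmga2 and Anxa3, most of them genes of epithelial or tumour cells. A single PBS Lef1-zero cell held 84.6% of that group's Krt8 UMIs, and from 90.0% to 95.7% for Krt19, Rbp4, Krt18, Wfdc2, Cldn18 and Hmga2. Krt8 stood at 26.0 against 223 CPM in PBS and 18.1 against 233 CPM in AKK, and its log2 ratio in PBS was -0.46 once the cell with the most UMIs of the gene was left out of each group. Of those named, Ptprk, a receptor tyrosine phosphatase (-2.38 and -2.16), and Anxa3, an annexin (-1.25 and -2.01), stayed past 2-fold lower in both libraries without such cells. Within CD8-type cells Ptprk was at -2.24 and -2.02 and Anxa3 at -0.42 and -0.70, while within CD4-type cells Anxa3 was at 1.64 and 0.23.

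Cell cycle RNA was lower in members than in Lef1-zero T cells. The 13 cell cycle genes measured in PBS had a median of -0.67 (11 lower) and the 18 in AKK -0.82 (18 lower). Of all genes measured, 4791 of 8341 in PBS and 6437 of 10723 in AKK were lower. Top2a, the topoisomerase of replicating cells, stood at 22.2 against 92.8 CPM in PBS and 77.2 against 208 CPM in AKK. With CD8-type cells on both sides the median was -0.32 in PBS (7 of 9 lower) and -0.04 in AKK (10 of 18 lower). With CD4-type cells on both sides it was -0.09 in PBS (3 of 5 lower) and 0.32 in AKK (3 of 8 lower). A cell was counted as cycling with at least 10 UMIs over 8 cell cycle genes. In PBS 0 of 121 members passed, which allows a share of up to 2.48%, and in AKK 11 of 343 did (3.21%, 1.61 to 5.67). Among Lef1-zero T cells 5 of 144 and 18 of 274 passed.

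Between the libraries, 69 of 9428 genes were past 2-fold higher in AKK members (0.732%) and 41 lower (0.435%), and the median log2 ratio over all genes was 0.03. At any size of difference, 5004 of the 9428 were higher in AKK members. Pseudocounts of 2 and 50 CPM gave 276 and 10 higher and 156 and 2 lower. No gene of the naive list was past 2-fold. Its median was 0.12, with 12 of 17 genes higher in AKK. Tcf7 was 397 CPM in PBS and 432 CPM in AKK members (ratio 1.09, 0.985 to 1.20), and Satb1 1234 and 1656 CPM (ratio 1.34, 1.27 to 1.42). Il7r, the interleukin-7 receptor chain, was 411 and 269 CPM (ratio 0.654, 0.589 to 0.727). Bcl2, which encodes a survival protein maintained by interleukin-7, was 1361 and 865 CPM (ratio 0.635, 0.600 to 0.673). By type, Il7r was 275 and 267 CPM in CD8-type members of PBS and AKK, 535 and 412 CPM in CD4-type and 564 and 184 CPM in neither-type members. In Lef1-zero T cells it was 251 and 107 CPM. Bcl2 was 849 and 560.2 CPM there, so neither gene was lower in AKK members alone.

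Of the 12 lists plotted for AKK over PBS, cell cycle had the highest median, 0.89, with 16 of 18 genes higher in AKK members and 7 past 2-fold. Mki67, a marker of dividing cells, was 12.2 CPM in PBS and 63.0 CPM in AKK, Stmn1, a microtubule regulator, 8.40 and 59.6 CPM, and Pclaf, a partner of the replication clamp, 1.53 and 56.8 CPM (2 and 219 UMIs, ratio 37.1, 10.2 to 309). The 11 cycling AKK members held 75.2% of the 896 cell cycle UMIs of AKK members, and the highest cell alone held 288. Without those 11 cells the median was 0.12, with 8 of 12 genes higher. The difference in the share of cycling members had an interval of -0.176 to 5.65 points. Their median depth was 22569 UMIs, over the 9785 of all AKK members, and none of the 11 was among the barcodes with the highest doublet scores. Lef1-zero T cells showed a like difference, with a median of 1.04 and 18 of 18 genes higher in AKK, and whether members and Lef1-zero T cells differ in this was not tested.

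**Figure D5:**
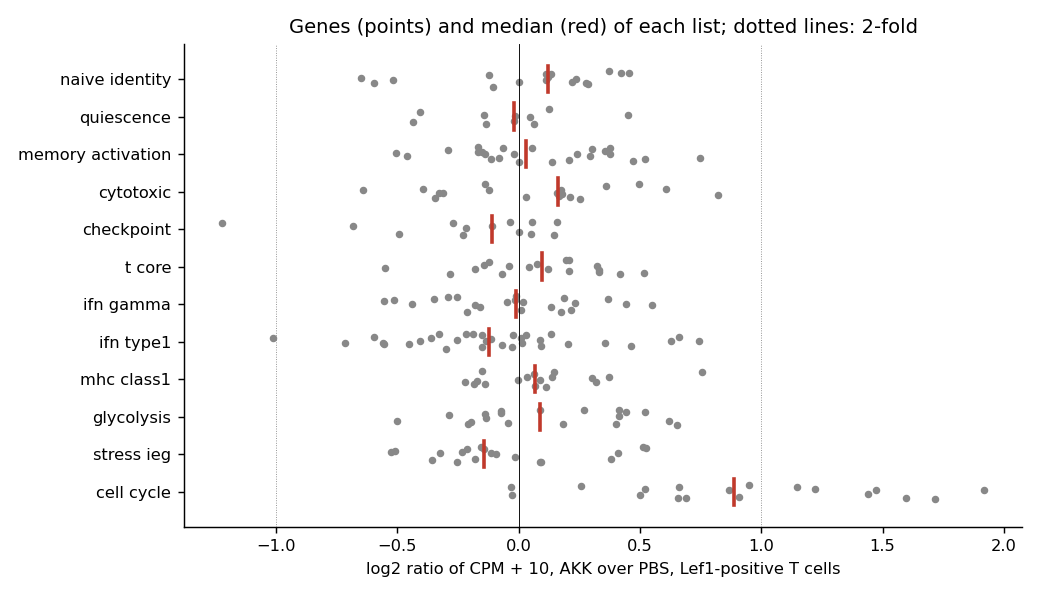
Log2 ratio of CPM + 10, AKK over PBS, in Lef1-positive T cells (x axis) for the genes of 12 lists (points), with each list's median as a red bar and dotted lines at 2-fold. Medians lie between -0.14 and 0.16 for every list shown but cell cycle, whose median is 0.89.

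Most other lists of T cell genes had medians near 0: 0.16 for cytotoxic (11 of 18 genes higher in AKK), 0.03 for memory and activation (13 of 24), -0.01 for interferon-gamma response (10 of 22), -0.12 for type I interferon response (12 of 32), 0.07 for MHC class I (11 of 17), 0.04 for T cell receptor activation (9 of 16) and -0.11 for checkpoint genes (5 of 13). The CD8 lineage list was at 0.39 (4 of 5), and at 0.14 within CD8-type members. Tnfrsf4, which encodes the costimulatory receptor OX40, was 66.5 CPM in PBS and 23.6 CPM in AKK (ratio 0.355, 0.262 to 0.482), detected in 31 of 121 and 44 of 343 members. By type it was 188 and 56.4 CPM in CD4-type members and 17.0 and 15.7 CPM in CD8-type members. Ctla4, an inhibitory receptor, was 289 and 176 CPM (ratio 0.609, 0.537 to 0.693). Both belong to the markers of regulatory T cells, of which 5 of 6 measured were lower in AKK members and 7 of 7 in AKK Lef1-zero T cells, with medians of -0.49 and -0.83. Within CD8-type members the median was -0.07, with 4 of 6 lower. All 8 markers were detected in members, summing to 1058 CPM in PBS and 925 CPM in AKK. Foxp3 was at 0 in all of these cells by the rule, and the part of regulatory cells without a captured Foxp3 UMI was not tested.

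The 10 genes highest in AKK over PBS members were Iglc1, Pclaf, Igha, Ighg2b, Ccl24, Igkc, Slc8a1, Stmn1, Hist1h2ap and Cst3. The immunoglobulin genes Iglc1, Igha, Ighg2b and Igkc stayed under 2 times the level that free RNA of other cells allows. Igha was 128 CPM in PBS and 658 CPM in AKK members, and its allowance was 115 and 672 CPM. Igkc, at 306 and 1198 CPM, itself set the plasma cell part of that allowance, and all 8 plasma cell markers were detected, summing to 268 and 1056 CPM. A single AKK cell held 90.5% of the UMIs of Ccl24, a macrophage chemokine, and 62.0% of those of Slc8a1. Cst3, an abundant gene of dendritic cells, was 92.4 and 363 CPM, with 33.8% in 1 AKK cell. Dendritic markers, 7 of 9 detected in PBS and 9 of 9 in AKK, summed to 135 CPM in PBS and 442 CPM in AKK members, with Clec9a and Cd209a at 0 in PBS, and their part was not tested. Once the cell with the most UMIs of the gene was left out of each library, Pclaf (log2 2.35), Stmn1 (1.86), Hist1h2ap (1.62), which encodes a histone, and Cst3 (1.37) were still past 2-fold, and Ccl24 was at 0.03. Cst3 turned to -0.32 when cells were thinned before the rule, and Hist1h2ap to -0.29 without the 11 cycling members.

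The 10 lowest were Retnlg, Creb3l2, Neb, Gldc, Serpina3g, Myo16, Tnfrsf4, Sema6d, Ccl6 and Furin. A single PBS cell held 84.7% of the UMIs of Retnlg, a neutrophil gene, and its log2 ratio was -0.03 without such a cell. Both Retnlg and Ccl6, a chemokine of myeloid cells, stayed under 2 times their free RNA allowance. Creb3l2, a membrane-bound transcription factor of secretory stress, was 118 CPM in PBS and 29.8 CPM in AKK (log2 -1.68). Serpina3g, a protease inhibitor of stimulated T cells, was 85.6 and 29.3 CPM (log2 -1.28), and Furin, a proprotein convertase, 222 and 96.7 CPM (log2 -1.12). Furin was found in 74 of 121 PBS and 168 of 343 AKK members. Leaving out the cell with the most UMIs in each library gave -1.47, -1.16 and -1.04 for Creb3l2, Serpina3g and Furin.

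A small group of members carried Zbtb16, which encodes PLZF, the factor of innate-like T cells such as NKT and MAIT cells. At least 3 UMIs were found in 12 of 121 PBS members (9.92%) and 35 of 343 AKK members (10.2%), against 4 of 144 (2.78%) and 12 of 274 (4.38%) Lef1-zero T cells. This group was cut after its values had been seen. Of these cells 0 of 12 and 1 of 35 were CD8-type, whereas 10 and 26 had neither coreceptor. Against members with 0 Zbtb16 UMIs, Tcf7 was lower, at 49.96 against 422 CPM and 102 against 483 CPM, and so was S1pr1, at 40.0 against 195 CPM and 62.8 against 236 CPM. Il2rb was higher, at 969 against 436 CPM and 922 against 412 CPM, as was Gzmb, at 299.8 against 106 CPM and 432 against 108 CPM. Klrb1c, which encodes NK1.1, was 149.9 against 35.7 CPM and 107 against 27.2 CPM. Il4 was found in 16 of the 35 AKK and 2 of the 12 PBS cells (37 and 4 UMIs), against 5 of 288 and 1 of 105 members with 0 Zbtb16 UMIs. Traj18, a joining segment of invariant NKT receptors, was in 0 of the 12 PBS and 4 of the 35 AKK cells. Of members with 0 Zbtb16 UMIs, 18 of 105 and 58 of 288 held it. Tcrg-C1, a gamma chain constant segment, was in 1 and 10 cells of the group, against 3 of 105 and 10 of 288. Trac, the alpha chain constant segment, was in 11 and 31 cells of the group. The part of NKT, MAIT or gamma-delta cells in it was not tested. Tcf7 was found in 5 of the 12 PBS and 14 of the 35 AKK cells, S1pr1 in 3 and 11, and Ccr7 in 0 and 2.

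Receptor V segments were captured in few members. A Trbv UMI, from the variable part of the beta chain, was present in 17 PBS (14.0%) and 55 of 343 AKK members, which held 11 and 14 of the 35 segments listed. The segment seen most, Trbv12-2, was in 6 and 14 cells, and its reads can be shared with the near-identical Trbv12-1. Among Lef1-zero T cells 32 (22.2%) and 33 of 274 had a Trbv UMI, over 15 and 14 segments. At this capture rate no clone could be followed. Rag1, a recombinase of thymic precursors, was at 0% of thinned members in both libraries, and Dntt, their DNA polymerase, at 0.893% and 0.656%.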

How the data were processed

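Members were found by the rule in each library's deposited matrix of raw UMI counts, which the authors made with Cell Ranger: version 7.1.0 per the file headers, 5.0.1 on mm10 per the submitters' processing notes. The sources used here do not give the intron setting. Counts were summed over cells of a library and scaled to CPM, and ratios were taken as log2 of CPM + 10 for genes with at least 30 UMIs. Ratios have exact conditional binomial 95% intervals, shares exact binomial (Clopper-Pearson) ones, and differences of shares Newcombe ones. They cover counting error only. A share of 0 allows 3 counts of the total. The deposited barcodes numbered 5088 in PBS and 6610 in AKK, with 64731604 and 74495998 UMIs. Macrophage barcodes had at least 10 UMIs of C1qa, C1qb and C1qc, neutrophil barcodes at least 10 of S100a8 and S100a9 and at least 2 of Csf3r, and no C1qa, and plasma barcodes at least 10 of Jchain, all with no CD3 UMI. The free RNA allowance of a gene was its level in neutrophil, macrophage and plasma barcodes times the share of UMIs that their marker genes allowed in members, summed. A gene was set against 2 times that allowance in the library where it was higher. Doublets were not removed. The barcodes with the highest Scrublet scores (0.8% per 1000 barcodes: 187 PBS and 340 AKK barcodes, 4 and 21 members) were left out in an alternative.

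Named genes were, for each comparison, the 10 highest and 10 lowest with at least 100 UMIs (over both libraries, or over members or Lef1-zero T cells of both), and up to 4 per list by UMIs or ratio. Some genes are not reported here. Genes outside this rule were named after their values were seen. The members and lists were chosen with earlier results of these data known. The comparison code was tested on simulated data. Of 32285 gene identifiers 32235 (99.8%) had coordinates in GENCODE M21 on GRCm38. Python 3.11.15, NumPy 2.4.6, SciPy 1.17.1, pandas 2.3.3 and scanpy 1.11.5 were used.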

Additional observations from a re-analysis of the deposited data

Results flagged for a closer look

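The CD8 lineage list had a median log2 ratio, members over Lef1-zero T cells, of -0.72 in PBS and 0.28 in AKK, and the core T cell receptor list -0.015 and 0.58. Both were singled out because the libraries' effects differed; the difference was not tested. Cd8a stood at 124 CPM in PBS members against 347 CPM in Lef1-zero T cells, and at 177 against 251 CPM in AKK. Restricted to CD8-type cells, the medians were -0.53 and -0.02 for the CD8 lineage and -0.13 and -0.06 for the core list.

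Cstdc4, a stefin-type protease inhibitor gene of myeloid cells, was higher in members in PBS (1.70) and lower in AKK (-1.61), past 2-fold in opposite directions. This difference was not tested, 56.2% of its PBS member UMIs came from 1 cell, and 40.7% of its AKK Lef1-zero UMIs from 1 cell. Without the cell with the most UMIs in each group the values were 0.93 and -1.22, so the PBS value was no longer past 2-fold.

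Barcodes with at least 2 Lef1 UMIs but no CD3 UMI numbered 124 in PBS and 204 in AKK, and no comparison used them. Ncr1, which encodes the natural killer receptor NKp46, was found in 63.7% and 62.3% of them, against 2.48% and 3.21% of members. Klrb1c was found in 80.6% and 79.4%, against 19.8% and 16.3% of members. Trac, the alpha chain constant segment, was found in 8.87% and 13.2%, against 92.6% and 85.7% of members. Tcf7 was found in 65.3% and 60.8%, against 70.2% and 77.6% of members.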

How the results depend on the processing

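No paired analysis was possible because each group had 1 library and no replicate numbers, so no replicate could be left out. Of 120 recomputed values of the main results 93 stayed within the tolerance, 0.25 for log2 medians and 1.5 times for counts. Of 1529 list and gene values 1164 stayed within their tolerance, 345 moved and 20 reversed. Gene values had a wider tolerance than list medians, 0.50 on the log2 scale or, for AKK over PBS, the gene's 95% interval. A reversal was counted only where the reported value was at least 2-fold, so sign changes of smaller values are not among the 20. The 3 differences of shares stayed within the 95% interval of the reported value in every setting run. The naive list median of members over Lef1-zero T cells in PBS (0.73) was 0.98 with thinning before the rule and 1.05 without the 5 deepest cells of each group, a setting chosen after seeing the data. Genes lower in members than in Lef1-zero T cells (145) numbered 233 without the highest Scrublet scores, 55 with Lef1 at 1 UMI, 68 with CD3 at 4 UMIs, 70 with thinning before the rule, 266 and 23 with pseudocounts of 2 and 50 CPM, and 69 with at least 100 UMIs per gene. Genes higher (64) numbered 24 with 50 CPM and 41 with each cell weighted alike. In AKK over PBS members, genes higher (69) numbered 225 with Lef1 at 1 UMI, 276 and 10 with 2 and 50 CPM, 44 with 100 UMIs and 30 with equal weights, and genes lower (41) numbered 156, 2 and 17 with 2 CPM, 50 CPM and 100 UMIs. The cell cycle median was 0.25 with thinning, 1.43 and 0.40 with 2 and 50 CPM, and 0.50 with equal weights. Alternatives chosen after seeing the data were leaving out the 5 deepest cells of each group (91 genes lower in members), CD8-type cells alone (73 lower in members, 179 higher in AKK) and leaving out cycling members (cell cycle median 0.12). Scaling by trimmed means shifted AKK over PBS by 0.04 on the log2 scale. Reversed log2 ratios, AKK over PBS, were Ccl24 without the highest Scrublet scores (-0.080) and in CD8-type cells (-0.20), Retnlg with thinning (0.17) and in CD8-type cells (0.52), Cst3 with thinning (-0.32) and Hist1h2ap without cycling members (-0.29). Members over Lef1-zero T cells reversed with CD3 at 4 UMIs for Krt19 (0.35), Krt18 (0.17), Hmga2 (0.18) and Anxa3 (0.00903) in PBS and Hmga2 (0.14) and Anxa3 (0.016) in AKK. With thinning they reversed for Rbp4 (0.088) and Krt18 (0.050) in PBS and Wfdc2 (0.025) in AKK. Without the 5 deepest cells Krt19 (0.28), Krt18 (0.11) and Hmga2 (0.22) reversed in PBS, and in CD8-type cells Krt19 (0.69) and Hmga2 (0.70) did. The cause was not tested. With 1 library per group, no spread between mice is known, and a share of 0 among 121 PBS members allows up to 2.48%.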
